A study of Rattus norvegicus with 20 samples.

Results

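The genes described here are Eph receptors and their ligands, the ephrins, in rat globular bushy cells, excitatory neurons of the ventral cochlear nucleus whose axons end in the calyx of Held. Of 10 named family members, 8 had at least 1 probe set whose platform annotation names that gene alone, 16 probe sets among the 20832 that name a single gene. Efnb2 and Ephb2 had none and were not analysed here. RefSeq lists Ephb2 as an older name of Ephb1 too; the probe set given as Ephb1 carries that gene's symbol and Entrez identifier, which differ from those of Ephb2. A total of 7 members passed the filter on dim probe sets (a level above log2 4 in at least 5 of 15 arrays) and were tested, among 11835 genes. The remaining one, Epha7, is described by its values.

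All samples came from Sprague Dawley rats killed 24 hours after the retrograde tracer cholera toxin B was injected into the MNTB, the nucleus on the opposite side where these axons end. From each animal 200 labelled cells were cut from brainstem sections by laser microdissection, so every array is a pool of cells of 1 animal. The groups are P3, just after the calyx of Held has formed (n = 6 animals), P8, when the synapse is juvenile and hearing is close to its onset (n = 9), and P21, when it is mature (n = 5). The labels give no other treatment, and age is the only difference between groups that they name.

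Eph receptors are receptor tyrosine kinases that bind ephrins on the surface of a neighbouring cell. A-type ephrins are held in the membrane by a lipid anchor and B-type ephrins span it, and signals run both into the cell with the receptor and back into the cell with the ephrin. The family steers growing axons, often by repulsion, sets up topographic maps and acts at excitatory synapses. In the auditory brainstem several of its members have been linked to the targeting of cochlear nucleus axons to the opposite side of the brain.

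Levels are log2(intensity + 1) of the deposited linear intensities, and differences are later minus earlier age on that scale, with the standard error of the fit. Adding 1 before the logarithm makes differences of dim genes look smaller than they are. P8 replicates 5 to 9 are given apart because their arrays differ as a whole. The mean log2 level of the hybridisation spike-ins was 12.94 to 13.85 there and 8.53 to 9.36 on the remaining 15 arrays. The share of probe sets above log2 4 was 77.1 to 80.5% there and 59.5 to 67.6% elsewhere. The comparisons therefore use 15 arrays (P3, P8 replicates 1 to 4, P21), and calls of members that end or are gained when all 20 enter are given beside them. Each of 12 markers of bushy cells and fast auditory neurons was above log2 4 on at least 1 array of every age. Their summed intensity was 6024 to 6643 at P3, 9163 to 15135 in P8 replicates 1 to 4 and 15966 to 23926 at P21. In P8 replicates 5 to 9 it was 3454 to 7610, below every other P8 array.

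From P3 to P21, 6 of the 7 tested members fell, 0 rose and Epha4 did not pass. Over all genes tested 20.5% were lower and 22.6% higher at P21. The median difference of the 7 members was -1.47, against 0.04 over all genes. In 4 of the 7 (Efnb3, Epha3, Epha5 and Ephb1) every P21 array lay below every P3 array, as in 14.5% of all genes, and 0 had every P21 array above (16.9% of all genes). Between P8 and P21, 4 of the 7 fell (Efnb3, Epha5, Ephb1 and Efna5) and 0 rose, against 10.1% lower and 9.71% higher over all genes, with a median of -0.90 for the members and 0.04 for all genes. Without overlap, 2 of the 7 were lower at P21 than at P8 (7.69% of all genes) and 0 higher (7.96%). From P3 to P8, 0 of the 7 were called by limma and 0 had an unadjusted p under 0.05, while 8.0% of all genes were lower and 9.32% higher. Without overlap 0 of the 7 were lower and 0 higher at P8 than at P3 (6.51% and 8.42% of all genes). With all 20 arrays the members that fell were 0 of 7 from P3 to P8 (11.8% of all genes), 3 from P8 to P21 (Efna5, Efnb1 and Efnb3, against 10.8%) and 3 from P3 to P21 (Efnb3, Epha3 and Epha5, against 7.83%). These 3 comparisons share their arrays, so they are not independent of each other. The members were not picked for their change, but earlier results of these data were known when they were listed.

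In such pools, fewer cells of a type and less RNA per cell cannot be told apart. Over the same ages the summed intensity of 9 measured oligodendrocyte and myelin markers was 791 to 2143 at P3, 5680 to 8791 in P8 replicates 1 to 4 and 7164 to 10691 at P21, and 9 of 9 rose from P3 to P21. The 6 markers of dividing cells fell, 6 of 6, from a sum of 426 to 644 at P3 through 325 to 440 to a sum of 116 to 176 at P21. Of the 5 measured oligodendrocyte precursor markers 4 were tested, of which 3 fell and 1 rose by P21, with sums of 1368 to 1894 at P3 and 403 to 792 at P21. Of 8 general neuronal markers tested 2 rose and 0 fell, with sums of 10765 to 12544, 12776 to 16556 and 9776 to 15612. Among 8 tested astrocyte markers 2 rose and 2 fell from P3 to P21. Their sums were 4827 to 9778 at P3, 4678 to 7882 in P8 replicates 1 to 4 and 5422 to 6888 at P21. In P8 replicates 5 to 9 the astrocyte sums were 11288 to 25789. Of 4 measured inhibitory neuron markers 2 were tested and both fell, with sums of 754 to 1358 at P3 and 292 to 784 at P21. The oligodendrocyte markers Opalin and Ermn were at or below log2 4 on every P3 array, as was Slc6a5, an inhibitory neuron marker, on every array. For GAPDH the 3' control probe set exceeded the 5' one, a gap that widens with RNA breakdown, by 2.52 to 3.20 at P3, 2.91 to 3.86 in P8 replicates 1 to 4 and 3.30 to 4.71 at P21. For beta-actin the mean gap was 4.70 at P3 (4.30 to 5.03), 4.29 in P8 replicates 1 to 4 (4.07 to 4.46) and 4.32 at P21 (3.84 to 5.51). P8 replicates 5 to 9 had smaller gaps, 1.65 to 2.54 for GAPDH and 0.72 to 2.64 for beta-actin. The part of these shifts in the falls of the Eph and ephrin genes was not tested.

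Among the ligands, Efnb3, Efna5 and Efnb1 were lower at P21 than at P3, and Efnb3 had the largest difference of the 7 members. It encodes ephrin-B3, a transmembrane ligand known as a repellent of axons at the midline of the spinal cord. Its only probe set, 1383078_at, stood at 8.26 in the lowest, 8.44 in the median and 8.72 in the highest of the 6 P3 arrays. The 4 P8 arrays compared (replicates 1 to 4) stood at 7.52, 8.53, 8.20 and 7.27, and the 5 P21 arrays at 2.54, 5.09, 5.30, 4.80 and 4.08. Every P21 array was below every array of both earlier ages, and 4 of 5 P21 arrays stayed above log2 4. The mean went from 8.45 ± 0.16 at P3 (SD, n = 6) through 7.88 ± 0.59 (SD, n = 4) to 4.36 ± 1.12 at P21 (SD, n = 5), and the spread at P21 was the widest of the 3 ages. The change was -3.52 ± 0.44 from P8 to P21 (adjusted p = 9.21e-05, limma) and -4.09 ± 0.40 between P3 and P21 (adjusted p = 1.35e-06, limma), which is 17.1-fold lower on this scale. From P3 to P8 the difference was -0.57 ± 0.42 (95% interval -1.47 to 0.33, adjusted p = 0.370, limma), with 3 of 4 P8 arrays below all P3 arrays. P8 replicates 5 to 9 ranged from 6.39 to 8.07, also above every P21 array.

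Efna5 encodes ephrin-A5, a lipid-anchored ligand of EphA receptors with a role in visual maps. Its probe set 1375647_at ranged from 6.55 to 7.27 at P3 with a median of 6.70. P8 replicates 1 to 4 stood at 7.03, 7.08, 7.12 and 6.33, and the P21 arrays at 5.96, 6.18, 6.60, 6.27 and 5.98. The P21 arrays were low as a group, with 4 of 5 below every array of P3 and 4 of 5 below every P8 array, but the ages overlapped. It fell by 0.61 ± 0.18 on the log2 scale from P3 to P21 and by 0.69 ± 0.20 from P8 to P21 (adjusted p = 0.0152 and 0.0268, limma). The P8 to P21 call ended without P8 replicate 1, 2 or 3 or P21 replicate 1 or 5, with an adjusted p of up to 0.0706 by limma. It also ended with only these ages in the fit or with array weights (adjusted p = 0.0675 and 0.0759, limma), and the P3 to P21 call ended over 20 arrays (adjusted p = 0.0640, limma). The difference from P3 to P8 was 0.09 ± 0.20 (95% interval -0.33 to 0.50), and P8 replicates 5 to 9 lay at 6.86 to 7.15, within the range of the earlier ages.

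Efnb1 encodes ephrin-B1, a transmembrane ligand of EphB receptors that also acts in craniofacial development. It was dim: probe set 1374403_at ranged from 4.50 to 5.05 at P3 with a median of 4.73. At P8, replicates 1 to 4 stood at 4.78, 3.99, 4.54 and 4.91, and the P21 arrays at 4.14, 3.47, 4.59, 3.45 and 4.76. The P21 arrays were scattered, with 3 of 5 below all P3 arrays and the other two within their range. The fall from P3 to P21 was 0.67 ± 0.25 (adjusted p = 0.0392, limma), close to the threshold. The call ended in 8 of 15 fits that each left out 1 array (P3 replicates 2 to 6 and P21 replicates 1, 2 and 4), with an adjusted p of up to 0.112 by limma. It also ended over 20 arrays, with a pseudocount of 16 and with a trended robust variance (adjusted p = 0.191, 0.0523 and 0.0574, limma). The differences from P3 to P8 and from P8 to P21 were -0.19 ± 0.26 (95% interval -0.75 to 0.36) and -0.47 ± 0.27 (95% interval -1.05 to 0.11). P8 replicates 5 to 9 were higher, at 5.02 to 6.13, and over 20 arrays the P8 to P21 difference was -0.94 and passed (adjusted p = 0.0333, limma). The P3 to P8 difference was then 0.27 and did not pass (adjusted p = 0.471, limma).

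**Figure D1:**
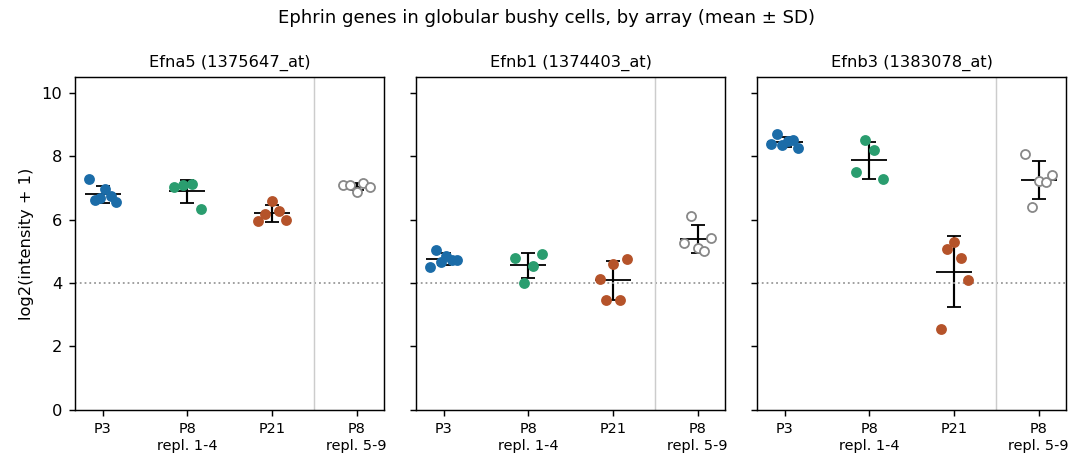
Levels of Efna5, Efnb1 and Efnb3 as log2(intensity + 1) on the vertical axis for each array (points), by age, with the mean and SD (black bars); P8 replicates 5 to 9 are the open points on the right of each panel, and the dotted line marks log2 4. The 5 P21 arrays of Efnb3 lie between 2.54 and 5.30, below all arrays of P3 and P8, whereas those of Efna5 and Efnb1 overlap with the earlier ages.

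Among the receptors, Epha5, Ephb1 and Epha3 were lower at P21 than at P3, and Epha4 did not pass. Epha5 encodes a neuronal EphA receptor that binds ephrin-A ligands and takes part in topographic maps. Probe set 1371007_at ranged from 7.35 to 8.80 at P3 with a median of 7.76. Levels in P8 replicates 1 to 4 were 8.01, 7.49, 8.60 and 6.86, and those at P21 were 6.60, 4.89, 5.89, 6.26 and 4.81. All 5 P21 arrays were below all P3 arrays and all of P8 replicates 1 to 4, and P3 overlapped with P8 replicates 1 to 4. The change was -2.05 ± 0.42 from P8 to P21 and -2.24 ± 0.38 between P3 and P21 (adjusted p = 0.00311 and 2.22e-04, limma), the latter 4.74-fold lower on this scale. From P3 to P8 it was -0.20 ± 0.40 (95% interval -1.05 to 0.66). P8 replicates 5 to 9 were spread from 3.46 to 9.42, and with them in the fit the P8 to P21 difference was -1.23 and did not pass (adjusted p = 0.177, limma).

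Ephb1 encodes an EphB receptor, known from the retina for sending axons to the same side of the brain at the optic chiasm. Probe set 1392215_at ranged from 6.85 to 7.41 at P3 with a median of 7.05. At P8, replicates 1 to 4 stood at 6.68, 7.36, 8.57 and 6.40, and the P21 arrays at 5.77, 5.74, 5.65, 6.42 and 4.63. Every P21 array was below every P3 array, and 4 of 5 were below all of P8 replicates 1 to 4. P21 replicate 4 overlapped with P8 replicate 4. The change was -1.61 ± 0.39 from P8 to P21 and -1.47 ± 0.35 between P3 and P21 (adjusted p = 0.00859 and 0.00330, limma), and 0.14 ± 0.37 from P3 to P8 (95% interval -0.65 to 0.93). P8 replicates 5 to 9 stood at 3.74, 5.74, 3.75, 6.28 and 2.17, below every other P8 array. Over all 20 arrays the P3 to P8 difference was -1.47 and the P8 to P21 difference 0.01 (adjusted p = 0.106 and 0.995, limma), and the P3 to P21 difference did not pass (adjusted p = 0.255, limma).

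Epha3 encodes an EphA receptor with ephrin-A5 as a high-affinity ligand. Its brightest probe set, 1385053_at, ranged from 6.19 to 6.66 at P3 with a median of 6.42. Levels in P8 replicates 1 to 4 were 5.57, 6.48, 6.14 and 5.10, and those at P21 were 5.49, 4.57, 4.81, 3.62 and 6.14. The mean was lower at each later age, and all P21 arrays were below all P3 arrays, but P8 overlapped with both. From P3 to P21 it fell by 1.49 ± 0.36 on the log2 scale (adjusted p = 0.00339, limma), 2.82-fold lower on this scale. The steps of -0.60 ± 0.38 to P8 and -0.90 ± 0.39 from P8 did not pass (adjusted p = 0.296 and 0.126, limma). The later step passed without P21 replicate 5, the highest of its age (-1.20, adjusted p = 0.0276, limma).

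Epha4 encodes a receptor that binds both A-type and B-type ephrins, ephrin-B3 among them. Its probe set 1390638_at ranged from 8.44 to 8.98 at P3 with a median of 8.76. P8 replicates 1 to 4 stood at 8.75, 9.86, 9.56 and 8.58, and the P21 arrays at 8.60, 8.51, 9.20, 9.09 and 8.56. All 3 ages overlapped. The difference between P21 and P3 was 0.05 ± 0.22, with a 95% interval from -0.43 to 0.53, so that a fall of the size seen in Efnb3 or Epha5 lies outside the interval. From P3 to P8 the difference was 0.45 ± 0.24 and from P8 to P21 -0.40 ± 0.25 (adjusted p = 0.209 and 0.284, limma). P8 replicates 5 to 9 stood lower, at 5.55 to 7.43, on this probe set, but at 7.64 to 8.08 on another Epha4 probe set, 1375729_at, where P8 replicates 1 to 4 ranged from 6.72 to 8.48. Over all 20 arrays the differences on 1390638_at turned to -1.02 from P3 to P8 and 1.07 from P8 to P21, neither called (adjusted p = 0.138 and 0.152, limma).

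**Figure D2:**
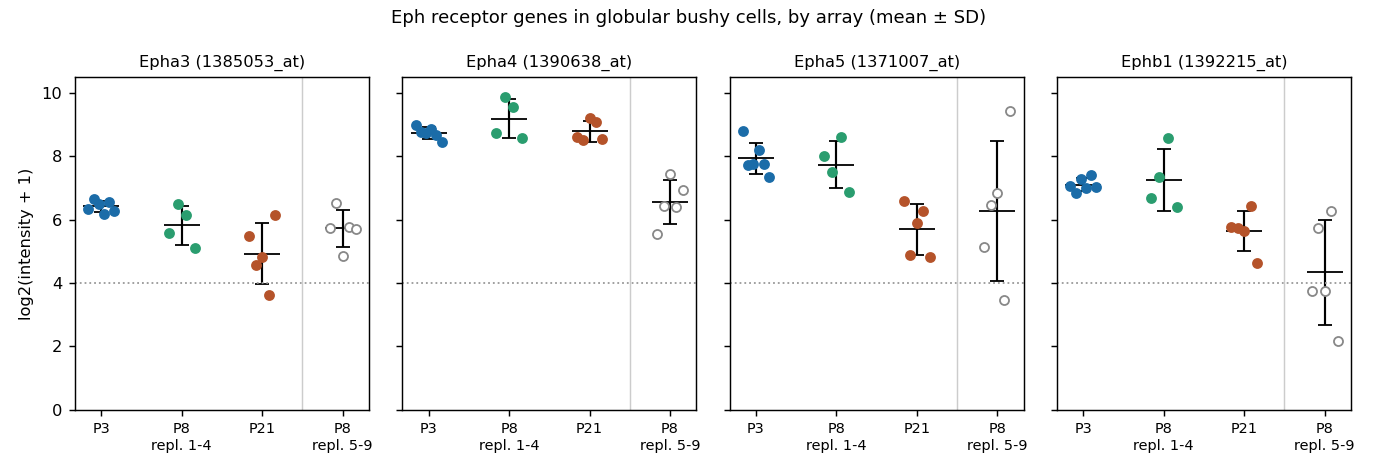
Levels of the receptor genes Epha3, Epha4, Epha5 and Ephb1 as log2(intensity + 1) on the vertical axis for each array (points), by age, with the mean and SD (black bars); open points are P8 replicates 5 to 9 and the dotted line marks log2 4. All P21 arrays of Epha3, Epha5 and Ephb1 lie below the P3 arrays, Epha4 stays between 8.44 and 9.86 on the 15 arrays compared, and P8 replicates 5 to 9 of Ephb1 reach down to 2.17.

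Of the 16 probe sets of the members, 8 passed the filter and 8 did not, and 5 members had more than 1 probe set. With every probe set as its own row, 39.1% of 15650 probe sets differed between P21 and P3. The other bright Epha4 probe set, 1375729_at, gave -0.33 ± 0.37 from P3 to P21 (adjusted p = 0.510, limma), again with overlapping ages (means of 8.29, 7.72 and 7.96). The dim Epha4 probe sets were on average higher at P21: 1379970_at averaged 2.51 at P3, 3.22 in P8 replicates 1 to 4 and 4.53 at P21, and 1382908_at 2.21, 2.34 and 3.25, both too dim to be tested and with overlapping P3 and P21 arrays. For Epha3 the dim probe set 1385082_at averaged 4.02 at P3, 1.79 in P8 replicates 1 to 4 and 2.87 at P21. It is thus lower at P21 than at P3, like the bright probe set, but lowest in P8 replicates 1 to 4. In P8 replicates 5 to 9 it averaged 4.90, its highest mean. The third Epha3 probe set, 1369379_at, averaged 2.29, 1.96 and 1.84.

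The other probe sets of Efna5 and Efnb1, 1369594_at and 1369476_at, were at 0.38 to 0.93 and at 0.49 to 3.25 on all 15 arrays, too dim for a comparison of ages. Epha7 encodes an EphA receptor that also exists in a form without kinase. Its probe sets stayed below log2 4 on all 15 arrays: 1369096_at averaged 3.17, 2.52 and 2.42 at the 3 ages and 1388061_a_at 1.46, 1.39 and 1.65. On P8 replicates 5 to 9 the former ranged from 3.20 to 6.17 and the other from 2.32 to 4.78.

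**Figure D3:**
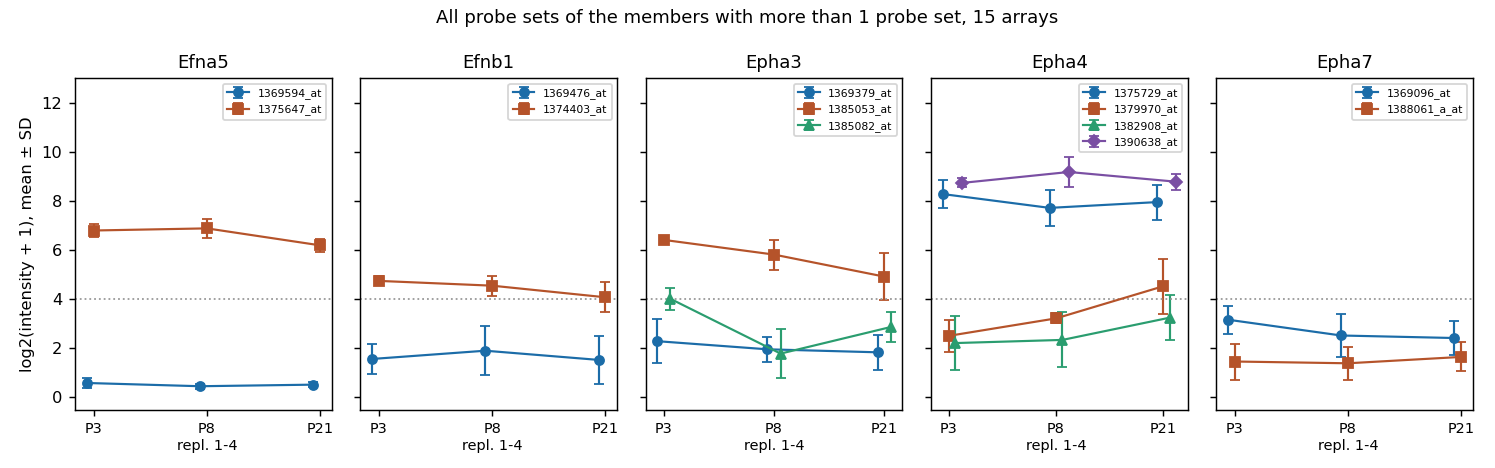
Mean and SD of log2(intensity + 1) at P3, in P8 replicates 1 to 4 and at P21 for each probe set (lines) of the 5 members with more than 1 probe set; the dotted line marks log2 4. The dim probe sets of Epha4 have means of 4.53 and 3.25 at P21 while the bright ones stay near 8 and 9, and both probe sets of Epha7 stay under the line.

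The rest of the family held both called genes and genes near 0. Of 12 further Eph receptor and ephrin genes 9 were measured and 7 tested, and from P3 to P21 0 rose, 2 fell (Ephb3 and Ephb4) and 5 did not pass, a count near the 20.5% of all genes that were lower. Their median difference was -0.20, against -1.47 for the members. Between P8 and P21 Ephb3 and Ephb6 fell and 5 did not pass (10.1% of all genes were lower), and between the first ages 0 were called by limma and 0 had an unadjusted p under 0.05. Ephb3, whose receptor binds B-type ephrins and acts with EphB2 in forebrain commissures, went from 6.82 ± 0.25 at P3 (SD, n = 6) through 6.57 ± 0.60 (SD, n = 4) to 3.85 ± 1.58 at P21 (SD, n = 5). Its P21 arrays ranged from 2.26 to 5.93, against 6.59 to 7.21 at P3. The change was -2.97 ± 0.53 from P3 and -2.72 ± 0.59 from P8 (adjusted p = 4.00e-04 and 0.00474, limma), and P8 replicates 5 to 9, at 3.87 to 5.54, lay within the range of P21.

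Ephb6, a receptor without kinase activity, changed by -1.13 ± 0.31 from P8 to P21 (adjusted p = 0.0179, limma), a call that ended without P8 replicate 2 or with only these ages in the fit (adjusted p = 0.0562 and 0.0620, limma). From P3 to P21 it stood at -0.68 ± 0.28 (adjusted p = 0.0602, limma), which passed without P3 replicate 1, P8 replicate 2 or P8 replicate 4, with only these ages in the fit and with array weights (adjusted p = 0.0109 and 0.0132 for the last pair, limma). Ephb4, known as a receptor of venous endothelium, was dim and changed by -0.64 ± 0.21 from P3 to P21 (adjusted p = 0.0241, limma), a call that ended without P3 replicate 6 or P21 replicate 1 or 4 or over 20 arrays (adjusted p = 0.306 for the last, limma). Leaving out P8 replicate 4 brought 1 call from P3 to P8 among these other family genes, and it was a rise. The called gene was neither Ephb6 (adjusted p = 0.0553 in that fit, limma) nor Ephb4. Among 7 tested endothelial and pericyte markers 1 rose and 0 fell from P3 to P21. Epha6 and Epha10, named after their values were seen, stood at 0.08 ± 0.24 and -0.19 ± 0.15 from P3 to P21, with 95% intervals from -0.43 to 0.60 and from -0.51 to 0.13.

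**Figure D4:**
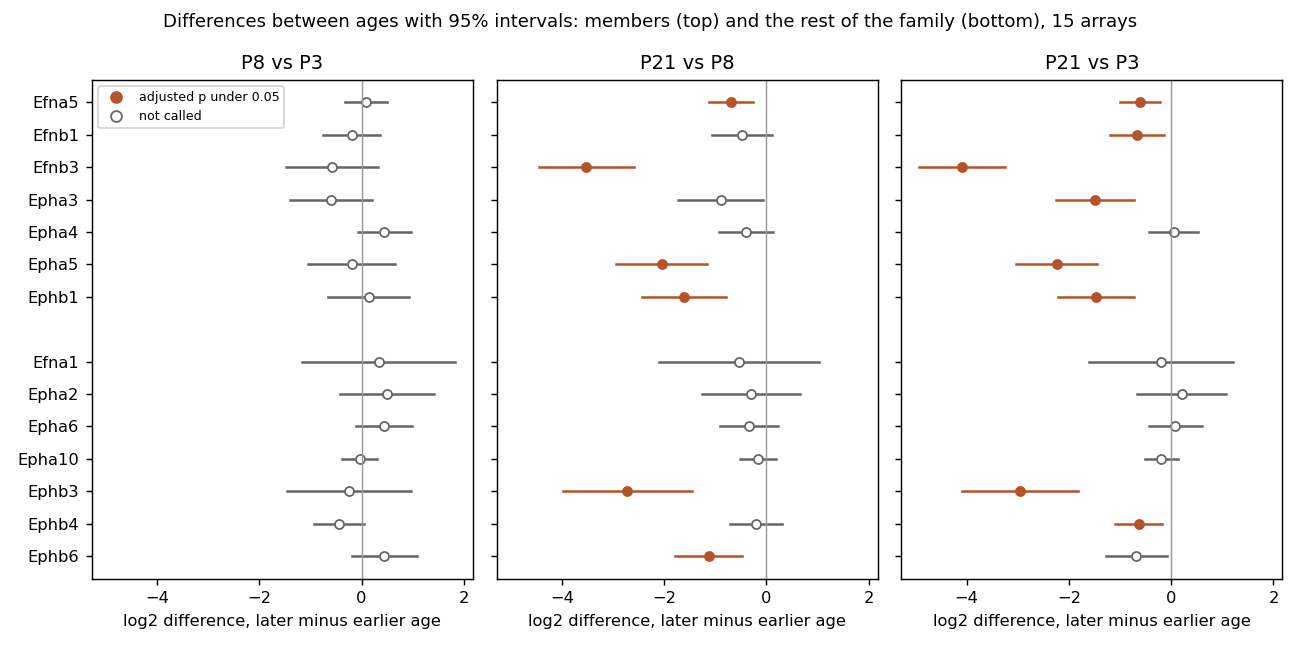
Differences on the log2(intensity + 1) scale, later minus earlier age (horizontal axis), with 95% intervals for the 7 tested members (top) and 7 other family genes (bottom) in the 3 comparisons over 15 arrays; filled points have an adjusted p under 0.05. No point is filled from P3 to P8, and all filled points in the other comparisons lie left of 0, with Efnb3 (-4.09) and Ephb3 (-2.97) farthest from it at P21 vs P3.

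The promoter table of RefSeq (build GRCr8) held 8 of the 10 named members, and in 3 of them the 250 bases before the start lay wholly outside the annotated gene. Of these 3, Ephb1 and Efnb1 were measured, and both were lower at P21 than at P3. Their windows are shown 5′ to 3′ as the 2 upstream sequences of falling members that could be read. Ephb1 is on the minus strand (chr8:111823760-111824009) and Efnb1 on the plus strand (chrX:68297279-68297528). Capitals mark matches to CCAAT on either strand (ATTGG on the other):
Ephb1: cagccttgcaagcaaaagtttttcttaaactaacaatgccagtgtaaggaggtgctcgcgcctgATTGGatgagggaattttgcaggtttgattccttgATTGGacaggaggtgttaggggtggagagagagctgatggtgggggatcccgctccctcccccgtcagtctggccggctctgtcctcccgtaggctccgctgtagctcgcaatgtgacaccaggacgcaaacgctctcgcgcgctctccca
Efnb1: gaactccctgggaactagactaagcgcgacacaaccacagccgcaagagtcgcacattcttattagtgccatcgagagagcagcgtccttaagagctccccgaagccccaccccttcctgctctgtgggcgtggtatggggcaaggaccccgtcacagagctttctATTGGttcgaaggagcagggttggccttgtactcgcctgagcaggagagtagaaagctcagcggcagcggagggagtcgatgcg
The Ephb1 window holds 2 such matches and the Efnb1 window 1, and 34.0% of 33469 windows of this length hold at least 1. Neither window holds a GC box (GGGCGG or CCGCCC, in 30.5% of windows), a TATA box (TATAAA or TTTATA, in 12.9%) or an E-box (CANNTG, in 65.5%). The G and C content is 56.4% for Ephb1 and 58.4% for Efnb1, against a median of 51.2%. These matches describe the letters only.

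Signalling partners of the family, such as kinases, exchange factors and adaptors, moved in both directions. Of 66 listed genes 64 were measured and 60 tested. From P3 to P21 16 rose, 16 fell and 28 did not pass, while 43.1% of all genes were called in either direction, and their median was -0.02. From P3 to P8 11 rose and 6 fell (17.3% of all genes were called in either direction), and from P8 to P21 4 rose and 9 fell (19.8% of all genes). The smallest p from P3 to P21 was that of Pak3, a kinase that acts below the small GTPases Rac and Cdc42, which went from 9.98 to 8.10 (-1.89 ± 0.14, adjusted p = 1.20e-07, limma). Fyn, a Src-family kinase of ephrin reverse signalling, went from 10.31 to 8.66 (-1.66 ± 0.15, adjusted p = 5.84e-07, limma). Farp1, an exchange factor for Rac, went from 8.35 to 5.45 (-2.90 ± 0.26, adjusted p = 6.71e-07, limma). Limk1, the kinase that inactivates the actin-severing protein cofilin, rose from 6.26 to 7.84 (1.58 ± 0.16, adjusted p = 1.98e-06, limma).

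The step in which a partner was called varied, and the difference between steps was not tested. Fyn changed by -1.81 ± 0.16 from P8 to P21 and by 0.16 ± 0.16 from P3 to P8 (adjusted p = 5.03e-06 and 0.519, limma). Ptpro, a phosphatase that acts on Eph receptors, likewise changed by -2.30 ± 0.31 from P8 to P21 and by -0.17 ± 0.30 between P3 and P8 (adjusted p = 1.62e-04 and 0.724, limma), and Cnksr1, a scaffold protein, by -0.95 ± 0.17 and 0.60 ± 0.16 (adjusted p = 0.00118 and 0.0196, limma). Farp1, Pak3, Limk1 and Chn1, which encodes the Rac inhibitor alpha-chimaerin that acts downstream of EphA4, were called from P3 to P8 already. The changes were -1.79 ± 0.28, -0.78 ± 0.15, 0.89 ± 0.17 and 0.95 ± 0.18 (adjusted p = 8.00e-04, 0.00299, 0.00305 and 0.00271, limma). Over all 20 arrays the P3 to P8 change of Limk1 turned to -0.42 and the P8 to P21 change of Pak3 to 0.51, neither called, the P3 to P8 difference of Fyn turned to -1.11 (adjusted p = 0.0625, limma), and the P8 to P21 calls of Fyn and Ptpro and the P3 to P21 call of Limk1 ended. With the mean of its probe sets Farp1 was not called from P3 to P8 or from P8 to P21 (-0.59 and -0.62, adjusted p = 0.317 and 0.312, limma). The P3 to P21 call of Farp1 held in all 13 alternative settings, with a smallest difference of -1.21. The P3 to P8 call of Cnksr1 ended without P8 replicate 1 or 3.

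**Figure D5:**
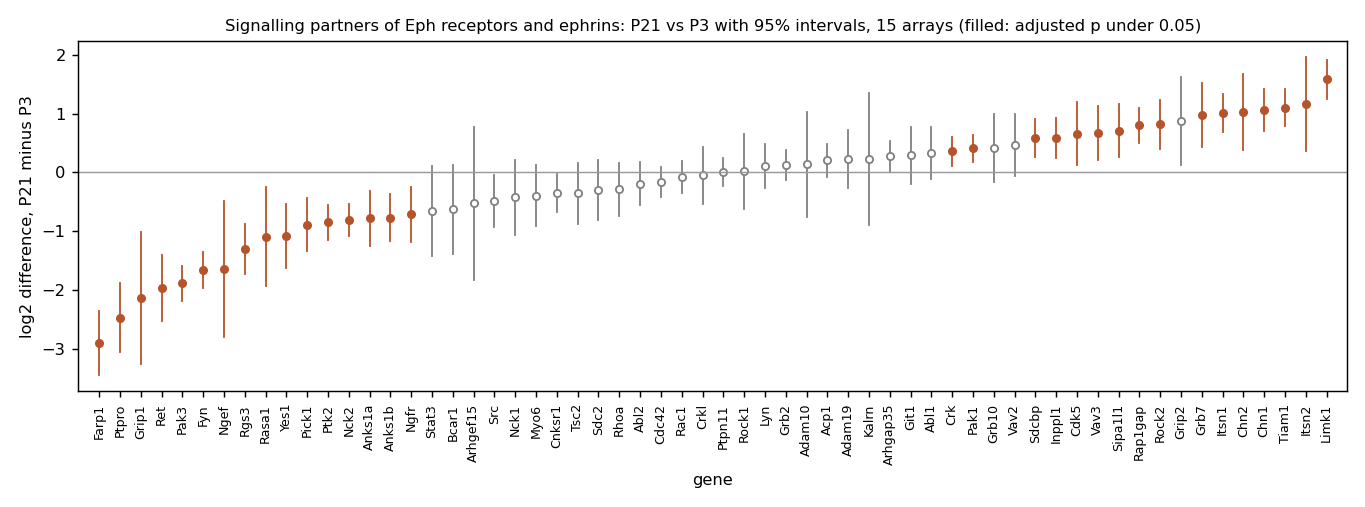
Differences between P21 and P3 on the log2(intensity + 1) scale (vertical axis) with 95% intervals for the 60 tested signalling partners, ordered by size; filled points have an adjusted p under 0.05. The 32 called genes split into 16 below and 16 above 0, from Farp1 at -2.90 to Limk1 at 1.58.

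The genes whose levels followed those of Efnb3 and Epha5 most closely, the ephrin and the receptor with the smallest p from P3 to P21, were looked for among 11834 other tested genes by Pearson correlation over the 15 arrays. For Efnb3 they were Pclaf, a partner of the replication clamp, Stx7, an endosomal syntaxin, and Marcksl1, a relative of the growth cone protein MARCKS (r = 0.973, 0.973 and 0.969). Pclaf, like Efnb3, had its larger step after P8. It went from 7.89 ± 0.36 at P3 (SD, n = 6) through 7.22 ± 0.21 (SD, n = 4) to 4.05 ± 1.09 at P21 (SD, n = 5). For Epha5 they were Ercc8, of DNA repair, Cbx1, a heterochromatin protein, and Sae1, of the SUMO pathway (r = 0.960, 0.938 and 0.923). All 6 genes had their lowest mean at P21, and the arrays share age and library, so these correlations are a description.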

How the data were processed

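Globular bushy cells of 20 rats were profiled on 1 array each. Per the labels' protocols, the RNA was amplified in 2 rounds and labelled with biotin in the later one. The authors deposited 1 linear intensity per probe set and array. The submitters' processing notes name GCRMA, which gives log2 values, and the sources used here do not name the tool behind these linear intensities. The mean intensity without the lowest and highest shares of probe sets was 100.0 on every array, and no further normalization was added. The number of arrays limits the precision.

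Of 31099 probe sets, 20832 name 1 gene in the platform annotation, 436 several and 9831 none. Symbols were updated through a RefSeq gene table of GRCr8, 20764 by Entrez identifier, 2 by accession and 66 kept, giving 14218 genes. For each gene the brightest probe set on average stood for it and was kept where 5 or more of the 15 arrays passed log2 4. The fit, with limma 3.58.1 (R 4.3.3), took log2(intensity + 1) of the 3 ages together, with Benjamini-Hochberg adjustment over 11835 genes and calls under 0.05. Every adjusted p comes from this tool. The members and lists were chosen with earlier results of these data known. Pathway genes are named by rule, up to 4 called genes per list and comparison by smallest p, and the 3 genes most correlated with the leading ephrin and receptor. Of 200 genes changed in simulated data, 50 per fold, limma recovered 30 at 2-fold and 45 at 4-fold for P21 vs P3 among 11835 genes. It recovered 28 and 45 for P8 vs P3, and 26 and 43 for P21 vs P8. The simulation gave each gene the same spread at all ages. It therefore does not cover genes such as Efnb3, whose SD was 0.16 at P3 and 1.12 at P21. Alternatives were all 20 arrays, other normalizations, filters, pseudocounts, probe set rules and variance models, only the ages compared, the replicate number as a block, and each array left out.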

Additional observations from a re-analysis of the deposited data

Results flagged for a closer look

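Among 64 sets of arrays (16 probe sets of the members at P3, P21 and in each set of P8 arrays), 3 had 1 array far from the others, and chance gives about 1 in 20. For Efna5 on 1375647_at, P8 replicate 4 stood at 6.33, against 7.03 in the nearest of the other P8 replicates 1 to 4. For Efnb1 on the dim probe set 1369476_at, P8 replicate 8 stood at 5.43, against 3.19 in the nearest of P8 replicates 5 to 9. For Epha7 on 1369096_at, P3 replicate 4 stood at 2.04, against 3.17 in the nearest other P3 array, both below the filter. The Efna5 value is the only one of the 3 that enters a test. Without that array Efna5 differed by 0.27 from P3 to P8 and by -0.88 from P8 to P21 (adjusted p = 0.332 and 0.00519, limma).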

How the results depend on the processing

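Over 13 alternative settings, 258 of 270 member differences kept their side of the threshold and, where called, their direction, 10 calls ended, 1 was gained and 1 turned (Ephb1 from P8 to P21, to 0.0081 over 20 arrays). In 315 values with 1 array left out, 13 calls ended, 1 was gained and 0 turned. The causes were not tested. Over 20 arrays the members called from P3 to P21 went from 6 to 3 (Efnb3, Epha3 and Epha5, where 7.83% of all genes were lower). Other family genes called from P3 to P21 went from 2 to 1, and partners from 32 to 11. From P3 to P8 other family genes called went from 0 to 2, both higher at P8, with Ephb6 among them (0.78, adjusted p = 0.0386, limma). Over 20 arrays Limk1 from P3 to P8 turned to -0.42 and Pak3 from P8 to P21 to 0.51, neither called. All genes called then went from 2050 to 3514 (P3 to P8) and from 5099 to 1928 (P3 to P21). With only the 2 ages compared, other family genes called from P8 to P21 went from 2 to 1, partners from 13 to 7 and all genes from 2345 to 1390. A filter at log2 6, which leaves out Efnb1, left 1 other family gene tested, which was called from P8 to P21 and between P3 and P21. Of 7941 genes then tested, 2229 and 4212 were called in these comparisons. The mean of probe sets left 11 partners called from P3 to P8, of 17, while 1925 of 11838 genes were called. Subtracting array medians moved the P3 to P8 split of all calls from 1103 higher and 947 lower to 1272 and 786.

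Replicate numbers did not pair the arrays: 13 same-numbered pairs had deviations correlated at -0.06 to 0.05. With the replicate block, members called were 0, 3 and 5 (P3 to P8, P8 to P21, P3 to P21), with Efna5 from P8 to P21 and Efnb1 from P3 to P21 not passing (adjusted p = 0.0865 and 0.0826, limma). Of all 11835 genes, 955 (P8 to P21) and 2102 (P3 to P21) were then lower. Also lost under the block were Ephb4 from P3 to P21 and Cnksr1 from P3 to P8 (-0.58 and 0.60, adjusted p = 0.0826 and 0.0876, limma). Under this block partners called from P3 to P8 were 11, other family genes from P3 to P21 1, and all genes from P3 to P8 1167. Leaving out each array gave 0 to 0, 3 to 4 and 5 to 6 members called. Other family genes called were 0 to 1, 1 to 3 and 1 to 3, and partners 12 to 18, 11 to 14 and 28 to 33. All genes called in these fits were 1559 to 2084, 1872 to 2510 and 4514 to 5497. Dim probe sets, Epha7 among them, limit what can be said of 8 of the 16.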

Other observations

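Among the partners are 6 genes whose proteins bind the cytoplasmic tail of B-type ephrins. They were picked from the partner list after their values were seen, so their values are a description with no test of the group. From P3 to P21, 4 were called lower and 1 higher, where 20.5% of all genes were lower and 22.6% higher. From P3 to P21 the PDZ scaffold Grip1 changed by -2.14 ± 0.53 and the PDZ protein Pick1 by -0.89 ± 0.21 (adjusted p = 0.00427 and 0.00327, limma). The mean of Grip1 was 5.26 at P3 and 3.13 at P21, the latter below log2 4. The regulator of G protein signalling Rgs3 and the SH2 adaptor Nck2 changed by -1.30 ± 0.20 and -0.81 ± 0.13 (adjusted p = 1.07e-04 and 1.57e-04, limma). The PDZ adaptor Sdcbp (syntenin) rose by 0.59 ± 0.15 and Grip2 stood at 0.87 ± 0.35 (adjusted p = 0.00618 and 0.0548, limma). With the mean of probe sets Rgs3 and Nck2 were not called (-0.18 and -0.25), and over 20 arrays Pick1, Sdcbp and Nck2 were not (adjusted p = 0.0950, 0.174 and 0.0671, limma).

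Epha8, an EphA receptor gene of the developing midbrain that was singled out after its values were seen, was too dim to be tested. Its means were 1.30 at P3, 1.87 in P8 replicates 1 to 4 and 2.54 at P21, with P21 arrays from 1.85 to 3.69 and P3 arrays from 1.00 to 1.58. P8 replicates 5 to 9 had a higher mean of 4.55 and ranged from 2.26 to 5.87.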
